A study of Mus musculus with 3 samples.

Results

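The TNF superfamily ligands and receptors measured here are 39 protein-coding mouse genes, 15 ligands and 24 receptors, of 50600 genes counted and 21764 protein-coding genes. They were taken by symbol: every protein-coding gene whose symbol begins with Tnfrsf or Tnfsf, with Cd40, Cd40lg, Cd27, Cd70, Fas, Fasl and Ltbr added and Tnf, Lta and Ltb left out. The rule itself uses symbols and no measured value. The counts come from 3 RNA sequencing libraries of T-helper 1 (Th1) primary cells of mouse strain C57BL/6NJ, which form the single group of the study, and the file headers name the time as 24 hr. The labels point to a CD4+ T cell differentiation protocol and give each library its own biosample, all with the same donor entry, and they record sex as not collected and age as unknown. The libraries are labelled total RNA, while the linked construction protocol is one for polyA RNA. The labels give the libraries as biological replicates, but none says that they are from different mice or dishes of cells. A p-value between libraries thus covers the scatter of these 3 libraries alone, and that scatter may be technical.

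Ligands of the TNF superfamily are mostly trimeric membrane proteins, some of which are shed, and their receptors recruit TRAF adaptors or, where they carry a death domain, FADD and TRADD. In T cells the costimulatory receptors OX40, GITR, CD137 and CD27 sustain division and survival through NF-kappaB, whereas Fas and the TRAIL receptor can start apoptosis. Activated CD4 T cells are known for the ligand of CD40, by which they license B cells and dendritic cells, and for RANKL, which acts on dendritic cells and osteoclast precursors.

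Levels are given as TPM, computed from the deposited counts and exon lengths so that genes can be compared per length, as mean ± SD over the 3 libraries (n = 3). Counts are listed for replicates 1, 2 and 3 in that order. Total counts were 3553547, 2945353 and 3369468. Where no read pair was counted, up to 3 remain possible, and these limits cover counting error only. All counts are of read pairs on one strand, and the labels do not give the strand of the library. Each gene was therefore placed in a strand class: overlapped, where it shares exon bases with a gene on the opposite strand; spanned, where only the gene spans overlap; near, where an opposite-strand gene lies within 5000 bases; or isolated. Of 938 pairs of a protein-coding gene and an overlapping antisense gene with 10 or more counts between them in every library, the antisense gene had the higher TPM in 799, which is 85.2%. Per kb, mt-Nd6, the mitochondrial mRNA gene on the opposite strand to the other 12, had 46137 ± 6561 counts against 2485 ± 366 for the highest of those. If the counted strand was opposite to that of the library, the count of a member without such a partner would be only a residue of its mRNA. This was not tested, so a low count does not show that an mRNA was absent. All TPM values below, high ones included, and their order are those of the counted strand.

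The locus of Tnfrsf18 shows what the counted strand means for a member. Tnfrsf18, which encodes the costimulatory receptor GITR (ENSMUSG00000041954.18, mm10 chromosome 4, 156026164 to 156028895, plus strand), had 237, 92 and 194 counts. Gm16008, an antisense gene across it on the minus strand (ENSMUSG00000087381.8, 156022008 to 156031643), had 5898, 5603 and 5926. The antisense gene thus had 24.9, 60.9 and 30.6 times the counts of Tnfrsf18, and its level of 2386 ± 39.1 TPM stood far above the 61.5 ± 24.3 TPM of Tnfrsf18. Counts of Gm16008 lay within a narrow range in the 3 libraries, while those of Tnfrsf18 were lowest in replicate 2. The 2 genes share 414 exon bases, 27.2% of the exon bases of Tnfrsf18. The shared bases fall in 2 stretches, and 211 of them are coding in transcript Tnfrsf18-202, which is 30.8% of its 684 coding bases. Both coding stretches are shown because the strand alone decides which gene a read pair from them is counted for, and the reverse complement of each is found in a Gm16008 transcript. The first, chr4:156026387-156026537 on the plus strand, begins with the start codon in capitals, and the second is chr4:156028495-156028554.
Tnfrsf18 first coding exon: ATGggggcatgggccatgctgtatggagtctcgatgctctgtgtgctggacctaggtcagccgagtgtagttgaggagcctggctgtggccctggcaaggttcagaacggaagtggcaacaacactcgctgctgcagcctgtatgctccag
Tnfrsf18 last coding exon, shared part: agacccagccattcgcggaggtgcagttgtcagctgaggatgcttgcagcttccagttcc

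**Figure D1:**
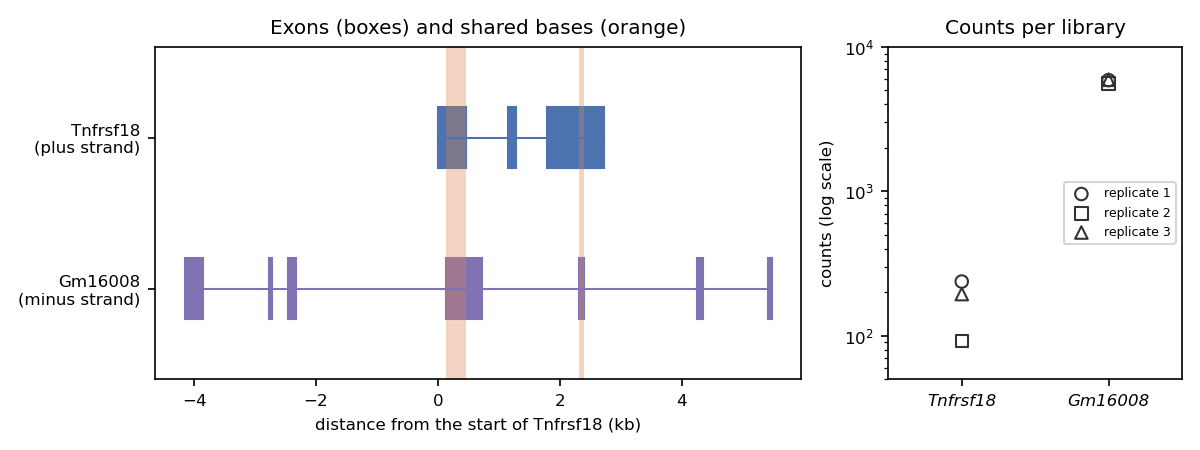
Left, merged exons (boxes) of Tnfrsf18 on the plus strand and Gm16008 on the minus strand by distance from the start of Tnfrsf18 in kb, with the 414 shared exon bases in orange. Right, counts of each gene in the 3 libraries on a log axis, where Gm16008 lies between 5603 and 5926 and Tnfrsf18 between 92 and 237.

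Most of the superfamily signal on the counted strand came from a few T cell genes. Tnfrsf4, Cd40lg, Tnfsf11 and Tnfrsf18 held 71.9% ± 2.84 of the summed TPM of the 39 members. Detection was set at a minimum of 1 TPM in each of the 3 libraries. It was reached by 20 of 39 members, 51.3%, against 41.2% of all protein-coding genes, and for 7 of 15 ligands and 13 of 24 receptors. By strand class, 10 of 22 isolated members were detected against 26.6% of isolated protein-coding genes, 4 of 5 near members against 50.3%, 5 of 7 spanned members against 36.1% and 1 of 5 overlapped members against 64.0%. The median over members was 2.18 ± 0.667 TPM against 0.386 ± 0.0703 TPM over protein-coding genes, and it was 1.265 ± 0.141 TPM for ligands and 2.27 ± 0.602 TPM for receptors. Among members that share no exon bases with an opposite-strand gene the order turned, with 4.23 TPM for ligands and 2.36 TPM for receptors. No read pair was counted in any library for 5 members: Tnfsf13b, Tnfsf18, Tnfrsf11a, Tnfrsf11b and Tnfrsf17. In the order of mean TPM among detected members, 15 of the 19 neighbouring pairs differed by less than the larger SD of the pair, although 10 of the 19 had the same order within every library. The steps beyond it were from Tnfrsf18 to Tnfsf8, from Cd27 to Tnfsf9, from Tnfrsf25 to Tnfrsf22 and from Tnfrsf22 to Tnfrsf13c.

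**Figure D2:**
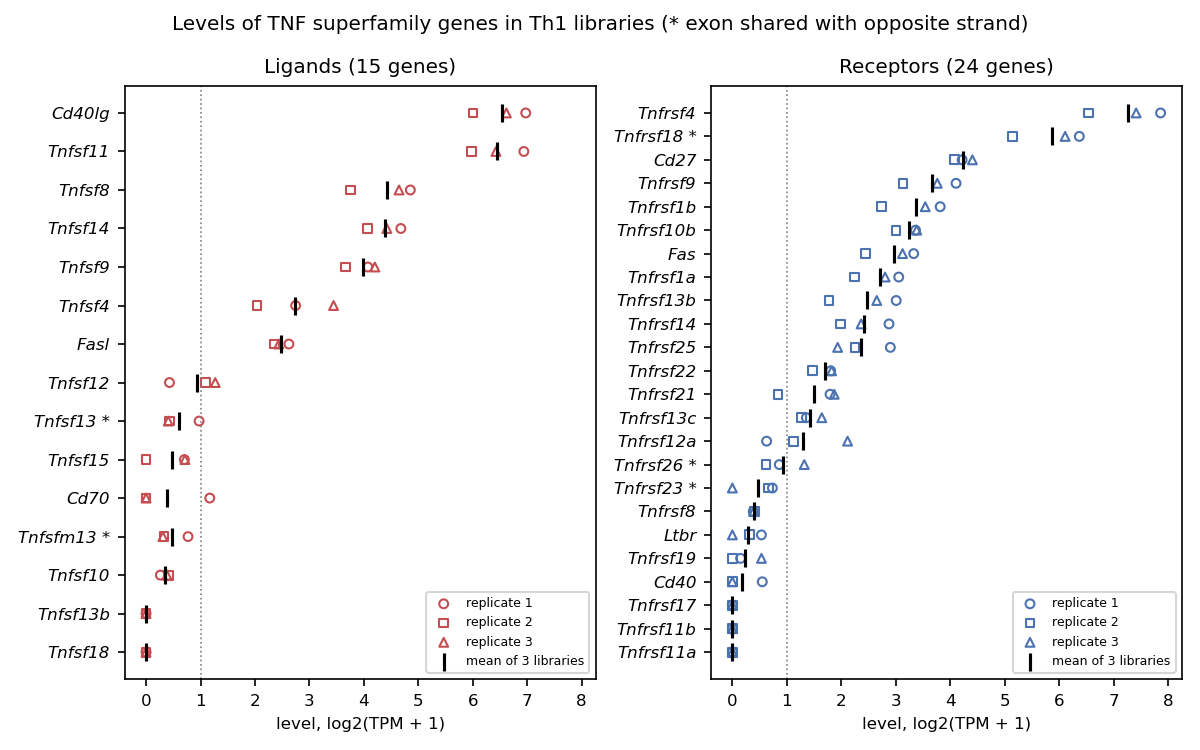
Level of each ligand (left) and receptor (right) as log2(TPM + 1) in replicates 1, 2 and 3 (symbols), with the mean of the 3 libraries as a bar, the value of 1 TPM as a dotted line, and an asterisk for members that share exon bases with an opposite-strand gene. Tnfrsf4, Cd40lg, Tnfsf11 and Tnfrsf18 stand highest, and the lowest symbol of most detected members is that of replicate 2.

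Among the costimulatory receptors, Tnfrsf4 stood highest of all members. Tnfrsf4 encodes OX40, which prolongs the survival of activated CD4 T cells (ENSMUSG00000029075.6, chromosome 4, 156013843 to 156016612). It had 602, 219 and 433 counts, or 232, 91.8 and 170 TPM, with a mean of 165 ± 70.3 TPM. Replicate 1 was the highest and replicate 2 the lowest. No opposite-strand exon overlaps Tnfrsf4, and the nearest opposite-strand gene, Gm37090, lies 1944 bases away and had 77, 84 and 80 counts. Cd27, which encodes a receptor that naive T cells already carry, had 78, 65 and 88 counts, or 17.9 ± 2.15 TPM. The 3 libraries lay close together for Cd27, with a coefficient of variation of 12%, the lowest after Fasl among the detected members. The microRNA gene Mir8113 lies wholly within an exon of Cd27 on the same strand and had 0 counts, and Vamp1 spans Cd27 on the opposite strand with 48, 38 and 65.

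Tnfrsf9 encodes CD137, a receptor induced on activated T cells. It had 84, 37 and 64 counts, or 12.2 ± 4.24 TPM, and Park7 on the opposite strand starts 125 bases from it with 239, 148 and 230 counts. Tnfrsf14 encodes HVEM, the receptor of LIGHT and of the inhibitory receptor BTLA, and had 14, 6 and 9 counts (4.48 ± 1.72 TPM). Tnfrsf25 encodes the death domain receptor DR3, which costimulates T cells, and had 28, 15 and 12 counts (4.35 ± 1.89 TPM). It was lowest in replicate 3, unlike the other receptors named so far, and Espn, 212 bases away on the opposite strand, had 1032, 1020 and 1075 counts. Tnfrsf8, the gene of CD30, had 2 counts in each library. Cd40, the receptor of antigen-presenting cells, had counts of 3, 0 and 0. Both lie at or under the limit that a count of 0 allows.

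Ligands of activated T cells were led by Cd40lg and Tnfsf11, neither of which has an opposite-strand gene within 5000 bases. Cd40lg (ENSMUSG00000031132.1, chromosome X, 57212143 to 57224042) had 296, 138 and 227 counts, or 95 ± 30.8 TPM. Tnfsf11, the gene of RANKL (ENSMUSG00000022015.8, chromosome 14, 78277445 to 78308043), had 517, 242 and 355 counts, or 89.5 ± 30.1 TPM. Cd40lg was the higher in each library, by less than the SD of either gene, and both were highest in replicate 1 and lowest in replicate 2. Tnfsf8 encodes the ligand of CD30 and had 202, 83 and 171 counts (21.5 ± 8.04 TPM). Tnfsf14 encodes LIGHT, which binds HVEM and the lymphotoxin beta receptor, and had 87, 51 and 71 counts (20.3 ± 4.47 TPM). Tnfsf9, the ligand of CD137, had 37, 25 and 40 counts (15 ± 2.99 TPM). Within each library Tnfsf9 was below both Tnfsf8 and Tnfsf14, whereas Tnfsf8 and Tnfsf14 changed places between libraries.

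The remaining costimulatory ligands were lower. Tnfsf4, the ligand of OX40, had 20, 10 and 34 counts (6.23 ± 3.42 TPM), with replicate 3 the highest. Tnfsf15, which encodes the DR3 ligand TL1A, had 4, 0 and 4 counts. Cd70, the ligand of CD27, had 2, 0 and 0, within the limit of a count of 0. Tnfsf18, the ligand of GITR, had no count, which allows up to 0.764, 0.831 and 0.777 TPM in replicates 1, 2 and 3.

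Genes of the death-inducing branch were counted at low to middle levels. Fas had 31, 14 and 26 counts (7.08 ± 2.37 TPM) and its ligand gene Fasl had 19, 14 and 16 (4.57 ± 0.53 TPM). Tnfrsf10b, the mouse TRAIL receptor with a death domain, had 56, 39 and 56 counts (8.59 ± 1.35 TPM), while Tnfsf10, which encodes TRAIL, had 2, 3 and 3. Tnfrsf21, which encodes the death receptor DR6, had 17, 5 and 18 counts and fell short of 1 TPM in replicate 2 only. Fas was above Fasl within each library, with a pooled ratio per length of 1.56 (95% exact binomial interval 1.07 to 2.29, counting error only), while their values overlapped between libraries. The counts of Tnfsf10 are no more than a count of 0 allows.

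Receptors for TNF and lymphotoxin differed among themselves. Tnfrsf1b encodes TNFR2, the TNF receptor without a death domain that T cells use, and had 95, 38 and 76 counts (9.81 ± 3.77 TPM). Tnfrsf1a, the death domain receptor of TNF, had 36, 17 and 29 counts (5.68 ± 1.8 TPM). Tnfrsf1b was the higher of the pair in every library. Ltbr, the receptor of membrane lymphotoxin, which stromal and myeloid cells carry, had 2, 1 and 0. Of the ligands of these receptors, which were not members, Lta stood at 234 ± 54.8 TPM, Tnf at 108 ± 35.9 and Ltb at 48.2 ± 13.4 TPM.

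The system of BAFF and APRIL, which serves B cell and plasma cell survival, was represented mainly by Tnfrsf13b. This gene of the receptor TACI had 38, 12 and 28 counts (4.92 ± 2.34 TPM), and Tnfrsf13c, the gene of the BAFF receptor, had 6, 5 and 8 (1.7 ± 0.372 TPM). Tnfrsf17, the plasma cell receptor BCMA, and Tnfsf13b, which encodes BAFF, had no count. Beside these receptors, the summed TPM of 6 B cell markers ranged from 8.69 to 10.4, with Ms4a1 at 0 in every library and Cd79a at 7.34 ± 0.653 TPM. The part of B cells in the counts of Tnfrsf13b and Tnfrsf13c was not tested, and in a bulk sample few cells of a type cannot be told apart from little RNA per cell.

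On the minus strand of chromosome 11 the genes of APRIL and TWEAK lie 466 bases apart, and a readthrough gene overlaps both. Tnfsf13, which encodes APRIL, had 3, 1 and 1 counts, Tnfsf12, which encodes TWEAK, had 1, 3 and 4, and Tnfsfm13, the readthrough gene across both, had 3, 1 and 1. Tnfsfm13 shares 983 exon bases with Tnfsf13, 60.1% of the latter, and 731 with Tnfsf12, 48.3% of the latter. The coding sequences hold identical runs of 363 and 477 bases with Tnfsfm13. Read pairs within such runs fit both genes, so the values of all 3 genes are uncertain. Tnfrsf12a, the gene of the TWEAK receptor Fn14, had 1, 2 and 6 counts, and Hcfc1r1, on the opposite strand 220 bases away, had 533, 482 and 520.

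RANK and its decoy had no counts although their ligand was among the highest members. Tnfrsf11a, which encodes RANK, allowed up to 0.264, 0.287 and 0.268 TPM, and Tnfrsf11b, which encodes the soluble decoy osteoprotegerin, up to 0.56, 0.609 and 0.57 TPM. Tnfrsf19, the gene of the receptor TROY, had 1, 0 and 4 counts.

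In a cluster of receptor genes on chromosome 7, Tnfrsf22 and Tnfrsf23 are alike in coding sequence. Tnfrsf22, which encodes a decoy receptor of TRAIL, had 20, 13 and 20 counts (2.27 ± 0.436 TPM), its neighbour Tnfrsf23, another decoy, had 5, 4 and 0, and Tnfrsf26 had 5, 3 and 9. The antisense gene E230032D23Rik runs across the cluster with 11, 11 and 7 counts and shares exon bases with Tnfrsf23 and Tnfrsf26. Coding sequences of Tnfrsf22 and Tnfrsf23 were 90.7% identical over 528 aligned bases, with a longest identical run of 102 bases, against 65.2% between Tnfrsf22 and Tnfrsf26. The most alike window of 120 bases is shown because read pairs from it could be assigned to either gene or to none, and its 2 differing bases are in capitals. It covers coding bases 384 to 503 of Tnfrsf22 and 354 to 473 of Tnfrsf23.
Tnfrsf22: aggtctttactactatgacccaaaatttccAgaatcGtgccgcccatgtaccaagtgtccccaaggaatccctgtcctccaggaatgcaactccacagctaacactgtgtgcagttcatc
Tnfrsf23: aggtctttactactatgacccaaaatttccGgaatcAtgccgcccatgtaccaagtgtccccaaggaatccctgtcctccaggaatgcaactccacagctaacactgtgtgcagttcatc

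Receptors and ligands that bind each other were compared within each library in 18 pairs, as log2((receptor TPM + 1)/(ligand TPM + 1)). The receptor was the higher in all 3 libraries in 10 pairs and the ligand in 6, and of the other 2 the genes of 1 pair, Tnfrsf17 and Tnfsf13b, were both at 0. Among the 6 is Tnfsf13 over Tnfrsf17, which rests on 5 pooled counts against 0, and its direction is not resolved at this depth. Among the 10 is Tnfrsf12a over Tnfsf12, with 9 pooled counts against 8, which is not resolved either. With counts + 1 and no length scaling, the receptor was the higher in all 3 libraries in 9 pairs. No test was made of the pairs, since the smallest p of an exact sign-flip test is 0.25 here. On this scale Tnfrsf4 exceeded Tnfsf4 by 4.53 ± 0.573, Cd27 exceeded Cd70 by 3.85 ± 0.71 and Tnfrsf10b exceeded Tnfsf10 by 2.9 ± 0.266. The size depends on the pseudocount where a partner is near 0. For the pairs led by the ligand, the values were -6.35 ± 0.314 for Cd40 and Cd40lg, -4.02 ± 0.601 for Tnfrsf8 and Tnfsf8, -4.11 ± 0.339 for Ltbr and Tnfsf14, and -1.98 ± 0.153 for Tnfrsf14 and Tnfsf14. With a pseudocount of 0.1 TPM the value was 6.24 for Cd27 and Cd70, -9.01 for Cd40 and Cd40lg, -5.62 for Tnfrsf8 and Tnfsf8 and -6.24 for Ltbr and Tnfsf14, each in the same direction, and 4.75 for Tnfrsf4 and Tnfsf4.

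Over the pooled libraries and per length, with 95% exact binomial intervals for counting error, Tnfrsf4 had 26.4 times the counts of Tnfsf4 (20.6 to 34.5). Cd40lg had 600 times those of Cd40 (205 to 2919), and Tnfsf8 had 69.1 times those of Tnfrsf8 (31.5 to 189). The wide interval of Cd40 reflects its 3 pooled counts. Where the partner had no count, the pooled ratio was taken against 3 counts over all libraries. Tnfsf11 was then at least 994-fold higher than Tnfrsf11a, and Tnfrsf18 at least 236-fold higher than Tnfsf18. Both bounds take the count of the higher gene as exact and hold for the counted strand only. The latter bound is also uncertain because Tnfrsf18 shares exon bases with Gm16008 on the opposite strand. Per length, Tnfsf9 had 1.22 times the counts of Tnfrsf9 (0.949 to 1.56), an interval that included equality. For Tnfrsf12a over Tnfsf12 the interval of 0.606 to 5.27 also included equality.

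**Figure D3:**
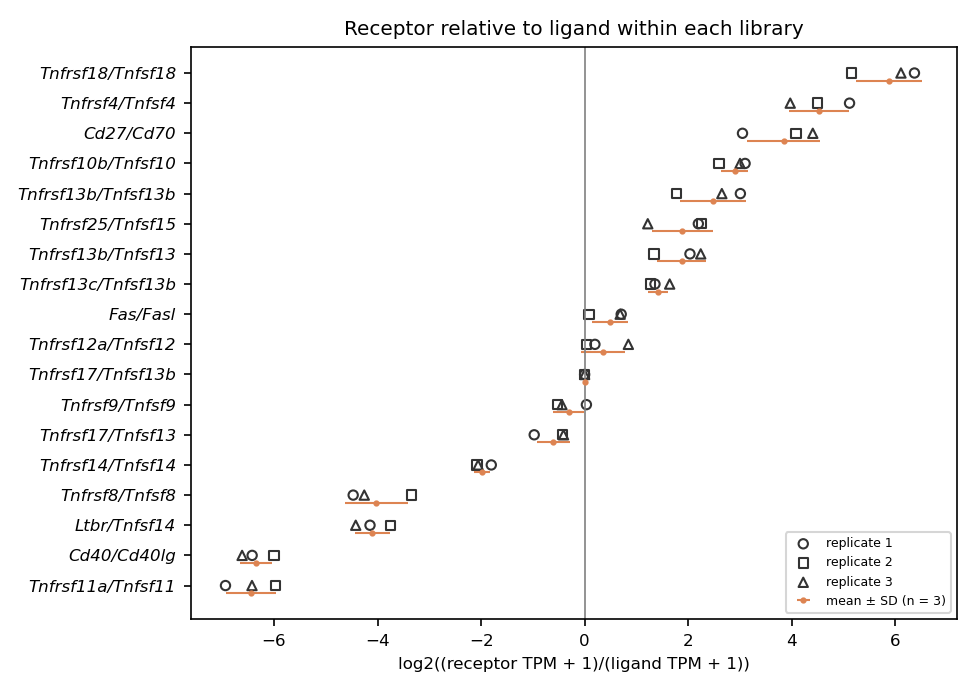
Difference between receptor and ligand of 18 binding pairs as log2((receptor TPM + 1)/(ligand TPM + 1)) in each library (symbols), with mean ± SD over 3 libraries in orange. Values right of 0 have the higher receptor, as for Tnfrsf4 and Tnfsf4 at 4.53, and values left of 0 the higher ligand, as for Cd40 and Cd40lg at -6.35.

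Members that lie next to each other in the genome were often counted at unlike levels. With gaps of at most 1000000 bases, 21 members formed 8 groups. On chromosome 4, Tnfrsf18 starts 9552 bases after the end of Tnfrsf4 on the same strand, and both were among the highest receptors. Elsewhere on that chromosome Tnfsf8 stood at 21.5 TPM beside Tnfsf15 at 0.423, and Tnfrsf1b at 9.81 TPM beside Tnfrsf8 at 0.315. On chromosome 17 Cd70, at 0.417 TPM, lies between Tnfsf9 at 15 and Tnfsf14 at 20.3 TPM. On chromosome 6 Ltbr, at 0.23 TPM, lies between Cd27 at 17.9 and Tnfrsf1a at 5.68 TPM. On chromosome 1 Tnfsf18, with no count, lies between Tnfsf4 at 6.23 and Fasl at 4.57 TPM. In each of these 3 groups the middle gene was below its neighbours in every library.

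Promoter sequences, from RefSeq on GRCm38.p6 and covering 250 bases before to 50 after an annotated start, were found for 29 of the 39 members. The motifs searched, on both strands, were GGG and TTTCC with any 2 bases between them for NF-kappaB, TGANTCA for AP-1, GGAAAA for the core of NFAT sites, and TATAAA for the TATA box. The NF-kappaB and NFAT letters can overlap, as they do at Tnfrsf25. The NF-kappaB motif was present for Tnfrsf9 and Tnfrsf25 (2 of 29 members, 6.9%, against 1.63% of all 32851 promoters), the AP-1 motif for 6 members (20.7% against 7.81%), the NFAT core for 11 (37.9% against 23.4%) and the TATA box for 4 (13.8% against 13.6%). Member genes with more than 1 promoter had more chances of a match, and a match is no evidence of binding. Printed are the promoters of the 3 highest members with an entry, Tnfrsf4, Tnfsf11 and Tnfrsf18, and that of Tnfrsf9 with both the NF-kappaB and AP-1 letters; motif matches are in capitals. They are chr4:156013445-156013744 (plus strand), chr14:78307994-78308293 (minus strand), chr4:156026072-156026371 (plus strand) and chr4:150927749-150928048 (plus strand).
Tnfrsf4: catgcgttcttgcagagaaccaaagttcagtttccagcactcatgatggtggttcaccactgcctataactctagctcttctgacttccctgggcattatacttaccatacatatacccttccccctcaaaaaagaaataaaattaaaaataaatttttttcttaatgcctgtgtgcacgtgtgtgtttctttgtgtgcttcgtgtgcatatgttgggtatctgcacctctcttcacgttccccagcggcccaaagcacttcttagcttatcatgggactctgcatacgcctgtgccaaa
Tnfsf11: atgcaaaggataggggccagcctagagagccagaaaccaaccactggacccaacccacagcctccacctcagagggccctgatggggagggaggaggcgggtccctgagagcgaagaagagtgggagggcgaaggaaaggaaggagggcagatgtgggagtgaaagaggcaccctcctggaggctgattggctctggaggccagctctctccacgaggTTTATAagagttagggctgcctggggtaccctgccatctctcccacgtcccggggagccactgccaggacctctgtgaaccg
Tnfrsf18: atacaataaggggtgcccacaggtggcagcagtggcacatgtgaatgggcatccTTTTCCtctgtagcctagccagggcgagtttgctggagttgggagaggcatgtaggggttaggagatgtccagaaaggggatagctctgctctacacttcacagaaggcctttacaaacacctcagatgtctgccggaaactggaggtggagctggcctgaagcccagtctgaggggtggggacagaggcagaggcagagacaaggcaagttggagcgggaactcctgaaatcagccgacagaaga
Tnfrsf9: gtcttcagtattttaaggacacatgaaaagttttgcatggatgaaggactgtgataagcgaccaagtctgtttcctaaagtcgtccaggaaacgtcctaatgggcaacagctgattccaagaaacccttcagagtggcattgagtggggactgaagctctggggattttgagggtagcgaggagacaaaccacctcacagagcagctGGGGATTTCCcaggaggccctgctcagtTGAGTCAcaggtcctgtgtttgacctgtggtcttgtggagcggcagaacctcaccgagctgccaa
In Tnfsf11 the TATA letters begin 32 bases before the start, on the opposite strand. In Tnfrsf9 the NF-kappaB letters begin 43 bases and the AP-1 letters 15 bases before a start that lies 13437 bases inside the gene. No searched letters occur in the Tnfrsf4 window.

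The 3 libraries differed in the level of the superfamily as a whole. Members held 0.0719%, 0.0394% and 0.0596% of all counts in replicates 1, 2 and 3. Isolated genes of every kind held 14.1%, 9.52% and 12.9% of the counts, and overlapped genes 68%, 77.5% and 70.3%. The share of members and that of isolated genes were thus both lowest in replicate 2 and highest in replicate 1. Per 1000000 counts on genes that are not overlapped, the 34 members of that kind had 2022, 1597 and 1800, which is a narrower range.

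Each gene was tested for variation between libraries beyond counting error, with a chi-square test on counts at TMM library sizes (edgeR) and Benjamini-Hochberg adjustment over 10216 genes. The test covered 18 members, those with enough counts for edgeR's filter. Of these, 6 varied, 33.3%, against 35.6% of all genes tested, so the share of members was near that of all genes. By class they were 4 of 8 isolated members against 23.7% of isolated genes, 1 of 4 near members against 21.7%, the 1 overlapped member against 53.0%, and none of 5 spanned members against 22.5%. They were Tnfrsf4 (chi-square test, adjusted p = 5e-11), Tnfsf11 (0.000104), Tnfrsf18 (0.00113), Tnfsf8 (0.00944), Cd40lg (0.0277) and Tnfsf4 (0.0303). The first 5 were highest in replicate 1 and lowest in replicate 2, where TPM was 2.53 times lower for Tnfrsf4 and 1.97 times lower for Cd40lg and for Tnfsf11. Tnfsf4 was highest in replicate 3, at 3.18 times its TPM in replicate 2. In TPM, 17 of the 18 members were lowest in replicate 2, and Tnfrsf25 was the exception. Among the tested isolated protein-coding genes, 92.2% were lowest in replicate 2 too.

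Scaled to the summed counts of its own strand class, a member was compared with all genes of that class. Then 3 of the 18 varied, 16.7%, against 26.1% of all genes tested: Tnfrsf4 (chi-square test, adjusted p = 1.31e-08), Tnfrsf18 (2.54e-11) and Tnfsf11 (0.00764). On this scale Tnfrsf18 was 2.43 times as high in replicate 1 as in replicate 2, Tnfrsf4 1.65 times and Tnfsf11 1.2 times. After this scaling 10 of the 18 members were lowest in replicate 2. The class of Tnfrsf18 also holds opposite-strand partners such as Gm16008. Its tested genes had a median ratio of replicate 1 to replicate 2 of 1.08 in TPM, against 2.37 for Tnfrsf18. For Tnfrsf18 the class is thus an unlike reference. With TMM factors computed within each class, 3 members varied, Tnfsf4, Tnfrsf4 and Tnfrsf18, against 26.7% of all genes. With edgeR's common dispersion added to the counting error, no member varied, and 3 of all 10216 genes did. That dispersion was estimated from the scatter of the same 3 libraries, so by construction it takes up the variation under test, and the count says nothing about stability. At an unadjusted p under 0.05 the number of members was 0 with the dispersion and 6 without it, and 6 varied with DESeq2 size factors. Without replicate 2, Tnfrsf4 and Tnfsf11 varied, 2 of 19 tested members, when 9.04% of all genes did. Without replicate 1 the number was 4 of 18, when 24.4% of all genes did. Both counts were near the share of all genes.

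**Figure D4:**
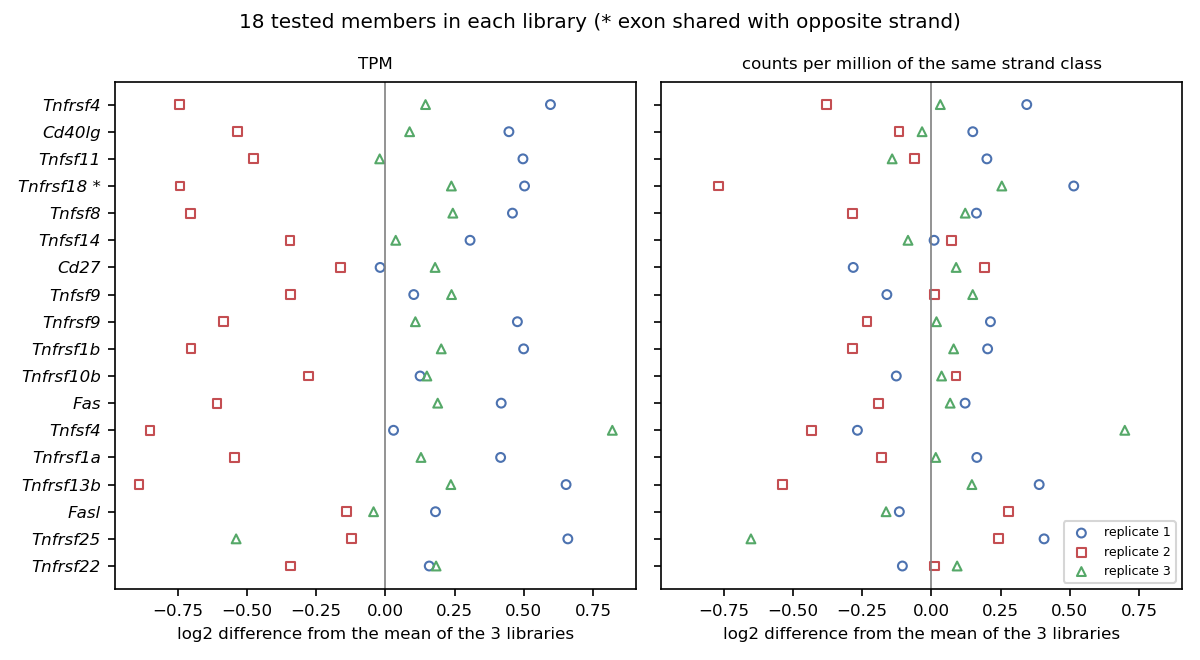
Log2 difference of each library from the mean of the 3 libraries for the 18 tested members, in TPM (left) and relative to the summed counts of the same strand class (right), with an asterisk for the overlapped gene Tnfrsf18. In TPM the square of replicate 2 is lowest for 17 of 18 members, and after scaling within the class for 10.

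Of the intracellular part of the pathway, all 36 listed adaptors, kinases, inhibitors and NF-kappaB subunits were detected, against 41.2% of protein-coding genes. The list was chosen with earlier results of these data known, so this share is a description and no test. Of the 36, 19 reached 5 TPM in every library, and the median of the mean levels of all 36 was 8.49 TPM. Exon bases are shared with an opposite-strand gene by 6 of the 36, which include Fadd, Ripk1 and Nfkbib. Nfkbia, the inhibitor that NF-kappaB itself induces, stood at 189 ± 42.8 TPM, Nfkb1, the precursor of the p50 subunit, at 47.6 ± 12.3 and Casp8, the caspase of the death receptors, at 36.8 ± 9.31 TPM. Nfkb2 (87.4 ± 15.8 TPM, opposite Psd) and Ikbkg (37.7 ± 1.96 TPM, opposite G6pdx) share exon bases with an opposite-strand gene, and their counts cannot be assigned to them alone. Among the TRAF adaptor genes, Traf4 was the highest at 15 ± 3.96 TPM and Traf5 the lowest at 2.18 ± 0.31 TPM (opposite Gm26879), and Traf1, an adaptor that NF-kappaB induces, stood at 8.36 ± 3.68 TPM. In the test for variation between libraries 12 of the 36 passed (33.3% against 35.6% of all genes tested), and 6 did when scaled within the strand class (16.7% against 26.1%). Of 8 superfamily genes outside the rule 4 were detected, Tnf, Lta, Ltb and the receptor gene Relt, and Edar and Ngfr had no count.

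The labelled cell type was checked against marker genes. All 7 CD4 T cell markers were detected, among them Cd4 at 105 ± 29.7 TPM and Trac at 196 ± 73.4 TPM. Of 5 Th1 markers, 3 were detected. Tbx21, the lineage factor, had 15, 11 and 8 counts, and Stat4 stood at 5.01 ± 1.87 TPM. Il12rb2 stood at 14.8 ± 2.01 TPM but shares exon bases with Serbp1 on the opposite strand. Cxcr3 had 2, 1 and 1 counts. Ifng, the defining cytokine gene, had 2, 2 and 1, no more than the limit of a count of 0. Beside Cd40, Cd70 and Tnfsf9, which antigen-presenting cells also express, the 6 dendritic cell markers summed to 1.19 to 1.62 TPM, with Flt3, Clec9a and Siglech at 0. The 7 macrophage and monocyte markers summed to 163 to 169 TPM, nearly all of it Csf1r at 160 ± 6.06 TPM, which shares exon bases with Hmgxb3 on the opposite strand, while Lyz2, Cd14 and Itgam were at 0. The 4 plasma cell markers summed to 7.68 to 13.7 TPM, most of it Xbp1 at 9.24 ± 3.22 TPM. Sdc1 and Prdm1 were not detected, and Jchain was at 0. The 4 NK cell markers summed to 0.38 to 0.773 TPM, with Ncr1, Klrb1c and Klrd1 at 0. Of the CD8 T cell genes, Cd8a had 1 count per library while Cd8b1 had 30, 20 and 36 (10.5 ± 2.64 TPM). The part of such cells in the member counts was not tested.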

How the data were processed

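RNA from 3 libraries of Th1 cells (1 group) was sequenced. The deposited tables hold unnormalized counts (read pairs assigned to each gene), made by the authors with featureCounts 1.4.6-p4 on exons of GENCODE M13 with strand option 1, per the file headers, on mm10 per the labels. The aligner's version and the kit are not given in the sources used here. Exon length, as the other deposited column, served to compute TPM. Symbols came from GENCODE M21 by identifier (50376 matched, 224 did not). Members and gene lists were chosen with earlier results of these data known. Members with a mean of 10 TPM or more, varying members, overlapped members with 10 or more counts in every library, their binding partners and those sharing exon bases on the same strand were named by rule, and the others by role so that each is accounted for. edgeR's quasi-likelihood test has no coefficient in a 1-group design. Counts were therefore tested for variation by chi-square against Poisson error (2 degrees of freedom, threshold 0.05). The test was checked on simulated Poisson counts with changes put into some genes. That check does not show how the test behaves under general scatter beyond counting error. Intervals are exact (Clopper-Pearson, 95%). Alternatives were the detection threshold, scaling, filter, pseudocount, strand class and each replicate left out. Software was R 4.3.3, edgeR 4.0.16, DESeq2 1.42.0, Python 3.11.15, numpy 2.4.6, pandas 2.3.3 and scipy 1.17.1.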

Additional observations from a re-analysis of the deposited data

How the results depend on the processing

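Detection of members ranged from 18 to 23 under the alternatives tried, except that 11 of 39 reached 5 TPM in every library, and 19 of the 36 pathway genes did. Of 18 tested members 6 varied (35.6% of all genes), 9 with unscaled total counts (51.7%), 3 with library sizes from the strand class (26.1%), 3 with TMM within the class (26.7%, an alternative added after the data were seen) and 0 with edgeR's common dispersion added (3 of 10216 genes), which is estimated from the same libraries. Leaving out each replicate gave 2 to 6 (9.04% to 37% of all genes). Among members with no opposite-strand exon overlap the ligand median was 4.23 TPM, above the 2.36 TPM of receptors, which reverses their order. With counts + 1 and no length scaling, the log2 ratio of Tnfrsf9 to Tnfsf9 reversed to 0.79. Leaving out overlapped members or length scaling changes the members or the scale by construction, and for the other changes the cause was not tested. No paired analysis was possible because there is only 1 group of samples, and receptor and ligand were compared within each library. Depth limits every member at or under 3 counts, which 12 were in every library.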
